A study of Mus musculus with 8 samples.

Results

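The genes described here are 10 mouse genes that act in the presentation of antigen on major histocompatibility complex (MHC) class II: the class II chains H2-Aa, H2-Ab1 and H2-Eb1, the peptide exchange chains H2-DMa, H2-DMb1, H2-Oa and H2-Ob, the invariant chain Cd74, the transactivator Ciita and the costimulatory ligand Cd86. They were chosen by function, as the rows of the count table whose Entrez GeneIDs (14960, 14961, 14969, 14998, 14999, 15001, 15002, 16149, 12265 and 12524, in that order) map to those symbols, and all 10 were found among the 23469 genes of the table. RNA sequencing read counts per gene were measured in whole lungs of C57BL/6 wild type (WT) mice and of mice carrying a transgene for DDAH1 (TG), the enzyme that breaks down asymmetric dimethylarginine. The mice received either 100 µg of house dust mite extract (HDM), an allergen mixture, in 50 µl PBS or 50 µl PBS alone into the trachea, 3 times per week for 3 weeks, and lungs were taken 24 hours after the last challenge. The paper describes a methacholine test of the airways before harvest, and the collection of lavage samples as well as lung tissue. Whether the sequenced lungs were lavaged first is not stated there. The treatments and genotypes gave 4 groups, WT PBS, WT HDM, TG PBS and TG HDM. Each group was 1 pool, made from equal amounts of RNA of 4 mice, and was read out in 2 libraries. The error given below is therefore technical, and no p-value covers variation between mice. The sources used here do not give the promoter of the transgene, the number of founder lines, or the age and sex of the mice.

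Class II molecules are pairs of an alpha and a beta chain that carry peptides from ingested proteins to the surface of B cells, dendritic cells and macrophages, where CD4+ T cells read them. The invariant chain fills the peptide groove while the pair is made and is cut away in endosomes by cathepsins, after which the DM heterodimer exchanges the last fragment for peptide and the DO heterodimer, most abundant in B cells, restrains DM. Transcription of most of these genes depends on CIITA, which does not bind DNA itself but docks on factors held at the X and Y boxes of their promoters, and in the lung the pathway is known for priming and recalling T cell responses to inhaled allergens.

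The promoter sequences are shown because 7 of the 10 genes lie together in the class II region of chromosome 17, and because the X and Y box is the element that the class II genes are known to share. Promoter windows were available from RefSeq (GRCm38.p6) for 6 of the 10 genes, with 7 transcription start sites, since H2-DMa has 2. The X box was searched as CCNAGNNAC and the Y box as ATTGG, both on either strand of the 250 bases before the start, and a pair was counted where the Y letters followed the X letters on the same strand after 10 to 40 bases. A pair was found at 3 of the 7 starts, H2-Oa, H2-DMb1 and H2-Ob, and at 142 of all 32851 promoters (0.432%). The 110 bases before the start are printed 5′ to 3′ on the gene's strand, with the X and Y letters in capitals, for these 3 genes and for H2-Aa and H2-Eb1, which held Y letters without the pair:
H2-Oa (chr17:34092269-34092378, plus strand): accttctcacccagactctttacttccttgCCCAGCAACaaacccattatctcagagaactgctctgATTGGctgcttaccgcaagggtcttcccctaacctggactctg
H2-DMb1 (chr17:34153081-34153190, plus strand): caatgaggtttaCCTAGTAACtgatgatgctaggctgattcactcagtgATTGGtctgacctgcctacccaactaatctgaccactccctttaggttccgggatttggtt
H2-Ob (chr17:34238795-34238904, plus strand): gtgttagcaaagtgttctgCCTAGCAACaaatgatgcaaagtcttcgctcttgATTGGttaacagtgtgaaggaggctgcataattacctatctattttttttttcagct
H2-Aa (chr17:34287824-34287933, minus strand): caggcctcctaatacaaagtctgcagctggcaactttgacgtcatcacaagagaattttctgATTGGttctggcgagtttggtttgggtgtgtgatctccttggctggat
H2-Eb1 (chr17:34305757-34305866, plus strand): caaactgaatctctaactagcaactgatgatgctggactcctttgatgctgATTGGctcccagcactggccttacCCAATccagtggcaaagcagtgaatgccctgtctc

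In H2-Oa the X letters began 80 and the Y letters 43 bases before the start, in H2-DMb1 98 and 61, and in H2-Ob 91 and 57, with 28, 28 and 25 bases between them. H2-Aa held X letters 180 bases and Y letters 48 bases before its start, too far apart to count as a pair. H2-Eb1 held Y letters 59 bases before its start and again on the opposite strand at 35. Taken singly, the X letters were in 4 of the 7 windows against 14.5% of all promoters and the Y letters in 6 of the 7 against 33.8%. A match describes letters in a window and is not evidence of a bound factor. Only exact matches were counted. Stretches before the Y letters that differ from the X letters at some positions, such as gctggcaac in H2-Aa and actagcaac in H2-Eb1, were not. A missing pair is therefore not evidence that the element is absent.

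The libraries held between 5694928 and 11929374 counts, the least in TG HDM replicate 1. Libraries of the same group differed by more than sampling noise (mean chi-square per gene 13.1 to 28.1). The level of the targeted gene was 47.8 and 34.3 CPM (counts scaled by the effective library size) in the WT PBS libraries against 77.0 and 53.8 in TG PBS (log2 fold change 0.66, SE 0.26, adjusted p = 0.358), and 43.1 and 44.7 in WT HDM against 34.9 and 33.4 in the libraries labelled TG HDM (log2 fold change −0.32, SE 0.29, adjusted p = 0.637), so under HDM Ddah1 was not above the wild type. Groups are named by their labels below. Xist, which is transcribed in female cells, was at 11.3 to 20.8 CPM in the 4 PBS libraries and at 2049 to 3042 CPM in the 4 HDM libraries, and the Y-linked gene Ddx3y at 58.7 to 69.0 CPM in PBS and at 2 to 3 counts in HDM, so an effect of HDM and one of the sex of the mice cannot be told apart in these data. Rag1, a gene of developing lymphocytes and the thymus, had 189 and 371 counts in WT PBS and at most 7 counts in each of the other 6 libraries. Rag2 (62 and 57 counts) and Dntt (30 and 23 counts) were likewise detected in WT PBS and had at most 5 counts elsewhere, whereas the summed level of the thymus list (182 to 491 CPM) was mostly that of 1 gene, Psmb11, at group means of 402 CPM in WT PBS, 359 in TG PBS, 285 in WT HDM and 192 in TG HDM. A skeletal muscle list summed to 41.5 to 45.2 CPM in WT PBS and to 107 to 210 CPM in the other groups. The part of such tissue in the results was not tested. The lung marker Sftpc was high in all 8 libraries (5688 to 15149 CPM).

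The 10 genes took 0.191 to 0.276% of all counts in the PBS libraries and 0.411 to 0.664% in the HDM libraries. Per kilobase of transcript, the order of the levels began with Cd74, H2-Aa, H2-Ab1 and H2-Eb1 in every group, with group means of 1205, 340, 157 and 73.6 CPM per kb in WT PBS and of 1488, 730, 373 and 239 CPM per kb in TG HDM. The same 4 genes led in the same order per kilobase of coding sequence. H2-DMa and H2-DMb1 followed at 9.83 to 38.0 CPM per kb, and H2-Ob, Ciita, H2-Oa and Cd86 were lowest at 0.610 to 23.9 CPM per kb. The order among these last 6 changed with the group and with the length used. In H2-DMb1, 27.2% of the 50-base stretches also occur in its neighbour H2-DMb2, so its split from that gene is uncertain. The other 9 genes shared no such stretch.

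**Figure D1:**
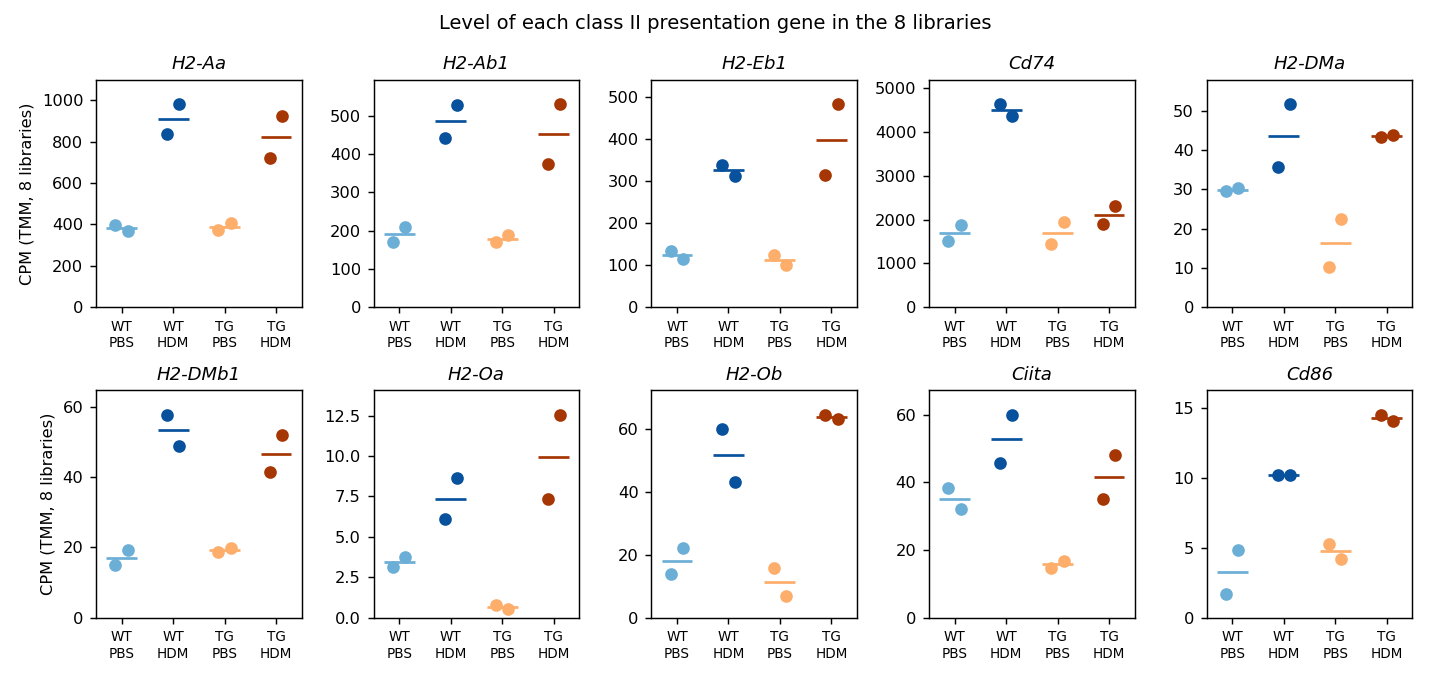
Level of each of the 10 genes in the 8 libraries, in CPM on a linear axis that starts at 0 (vertical axis) by group (horizontal axis), with points for libraries and bars for the mean of the 2 libraries of a group. H2-Aa, H2-Ab1 and H2-Eb1 stand at similar heights in both HDM groups, whereas Cd74 stands at 4368 to 4640 CPM in WT HDM and at 1891 to 2306 CPM in TG HDM.

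The first question was how the genes differed after HDM within each genotype. After HDM, 6 of the 10 genes rose in WT mice and 8 of 10 rose in TG mice, and none fell in either. The 3 class II chains, H2-DMb1 and H2-Ob rose in both genotypes, H2-DMa, H2-Oa and Ciita passed the test in TG mice, and Cd74 passed it in WT mice. In whole-lung RNA, fewer cells of a type and less RNA per cell cannot be told apart, which applies to every value below.

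H2-Aa, the alpha chain of the I-A molecule, was at 398 and 369 CPM in the WT PBS libraries and at 835 and 982 CPM in WT HDM. It was at 372 and 405 CPM in TG PBS and at 723 and 925 CPM in TG HDM. All 4 HDM libraries lay above all 4 PBS libraries. H2-Aa rose by a log2 fold change of 1.24 (SE 0.12, adjusted p = 1.42e-05) in WT and of 1.10 (SE 0.18, adjusted p = 0.00192) in TG mice. H2-Ab1, the beta chain that pairs with it, was at 169 and 210 CPM in WT PBS and at 442 and 529 CPM in WT HDM. In TG mice it was at 169 and 188 CPM after PBS and at 374 and 531 CPM after HDM. Here too no HDM library reached down to a PBS library. H2-Ab1 rose by 1.35 (SE 0.15, adjusted p = 4.40e-05) in WT and by 1.36 (SE 0.20, adjusted p = 0.00126) in TG mice on the log2 scale.

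H2-Eb1, the beta chain of the I-E molecule, was at 132 and 113 CPM in WT PBS and at 338 and 313 CPM in WT HDM, and at 125 and 99.4 CPM in TG PBS and 314 and 483 CPM in TG HDM. The 2 TG HDM libraries were far apart, the second lying above every other library. Its log2 fold change was 1.40 (SE 0.15, adjusted p = 3.12e-05) in WT and 1.85 (SE 0.23, adjusted p = 0.000383) in TG mice, a 3.60-fold rise in the latter. Its partner H2-Ea, which the H2-b haplotype of C57BL/6 mice is known not to express, had 1 and 3 counts in TG HDM and 0 counts in the other 6 libraries, where a count of 0 allows up to 0.245 to 0.317 CPM depending on the library.

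The DM chains, which exchange peptides on class II, differed from each other. H2-DMb1 was at 14.9 and 19.2 CPM in WT PBS and 57.8 and 48.9 CPM in WT HDM, and at 18.6 and 19.9 CPM in TG PBS and 41.4 and 51.9 CPM in TG HDM. All HDM libraries were above all PBS libraries, and H2-DMb1 rose in both WT (log2 fold change 1.64, SE 0.28, adjusted p = 0.00253) and TG mice (1.30, SE 0.32, adjusted p = 0.0196). H2-DMa was at 29.6 and 30.3 CPM in WT PBS and 35.6 and 51.7 CPM in WT HDM. It was at 10.2 and 22.4 CPM in TG PBS and at 43.5 and 43.8 CPM in TG HDM. The TG PBS libraries were the lowest 2 of the 8 and lay far apart from each other. H2-DMa rose in TG mice (1.44, SE 0.40, adjusted p = 0.0332), while its log2 fold change in WT mice was 0.54 (SE 0.28, adjusted p = 0.301).

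The DO chains, which restrain DM, had low counts. H2-Oa had 31 and 46 counts in WT PBS, 68 and 86 in WT HDM, 8 and 5 in TG PBS and 49 and 162 in TG HDM, or 3.12 and 3.76 CPM, 6.08 and 8.64 CPM, 0.799 and 0.529 CPM, and 7.34 and 12.5 CPM. The TG PBS libraries were below all others, close to the 3 counts that an observed 0 allows. H2-Oa rose in TG mice (log2 fold change 3.90, SE 0.82, adjusted p = 0.00881, 14.9-fold), and its log2 fold change in WT mice was 1.09 (SE 0.63, adjusted p = 0.374). H2-Ob was at 13.8 and 22.2 CPM in WT PBS and 60.1 and 43.1 CPM in WT HDM, and at 15.7 and 6.87 CPM in TG PBS and 64.4 and 63.1 CPM in TG HDM. PBS and HDM libraries were separate in both genotypes, and H2-Ob rose by 1.52 (SE 0.31, adjusted p = 0.00940) in WT and by 2.52 (SE 0.40, adjusted p = 0.00171) in TG mice on the log2 scale.

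Cd74, the invariant chain that chaperones class II and fills its groove, was at 1520 and 1879 CPM in WT PBS and at 4640 and 4368 CPM in WT HDM. It was at 1432 and 1950 CPM in TG PBS and at 1891 and 2306 CPM in TG HDM. The WT HDM libraries stood far above the other 6, and the TG PBS and TG HDM libraries overlapped. Cd74 rose in WT mice by a log2 fold change of 1.41 (SE 0.10, adjusted p = 5.61e-07), or 2.65-fold, and its log2 fold change in TG mice was 0.33 (SE 0.17, adjusted p = 0.245). The TG value was 0.12 to 0.57 with 1 library left out, was called without TG HDM replicate 1 (0.45, adjusted p = 0.0273), and was −0.064 after the correction for transcript length.

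Ciita, the transactivator of the class II genes, was at 38.3 and 32.2 CPM in WT PBS and 45.9 and 60.0 CPM in WT HDM. In TG mice it was at 14.8 and 16.8 CPM after PBS and at 35.2 and 48.1 CPM after HDM. The TG PBS libraries were the lowest, and the TG HDM libraries lay around the level of WT PBS. Ciita rose in TG mice (log2 fold change 1.42, SE 0.34, adjusted p = 0.0182), and its log2 fold change in WT mice was 0.59 (SE 0.25, adjusted p = 0.218). Cd86, which gives T cells a second signal through CD28, had 17 to 182 counts per library and was at 1.71 and 4.82 CPM in WT PBS, 10.2 and 10.2 CPM in WT HDM, 5.29 and 4.23 CPM in TG PBS and 14.5 and 14.1 CPM in TG HDM. All HDM libraries were above all PBS libraries, but neither difference passed edgeR's quasi-likelihood test. The log2 fold changes of Cd86 were 1.63 (SE 0.63, adjusted p = 0.159) in WT and 1.61 (SE 0.53, adjusted p = 0.0675) in TG mice. DESeq2 called Cd86 in TG mice (adjusted p = 0.0490).

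In WT mice 6 of 10 genes were called higher and none lower, where 6.74% of the 15123 genes tested were called, 4.44% higher and 2.30% lower, and the median log2 fold change of the 10 genes was 1.38 against 0.0190 for all genes. All 10 had HDM libraries above their PBS libraries, as did 25.0% of all genes. In TG mice 8 of 10 genes were called higher and none lower, where 13.8% of the 15086 genes tested were called, 8.43% higher and 5.35% lower, with a median of 1.43 against 0.0309, and 9 of the 10 had HDM libraries above their PBS libraries, as did 28.8% of all genes. The WT calls were the same in number without any 1 library (6 of 10 each time). The calls in TG mice changed with 1 library left out, with 2 of 10 genes called without TG PBS replicate 1, 0 of 10 without TG PBS replicate 2, and 5 of 10 without TG HDM replicate 2, but 9 of 10 without TG HDM replicate 1. The log2 fold changes in these fits stayed above 0 for all 10 genes, for example 0.91 to 1.25 for H2-Aa, 2.04 to 3.22 for H2-Ob and 3.45 to 4.22 for H2-Oa. A correction for a trend of fold change with transcript length left 5 of 10 called in TG mice.

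**Figure D2:**
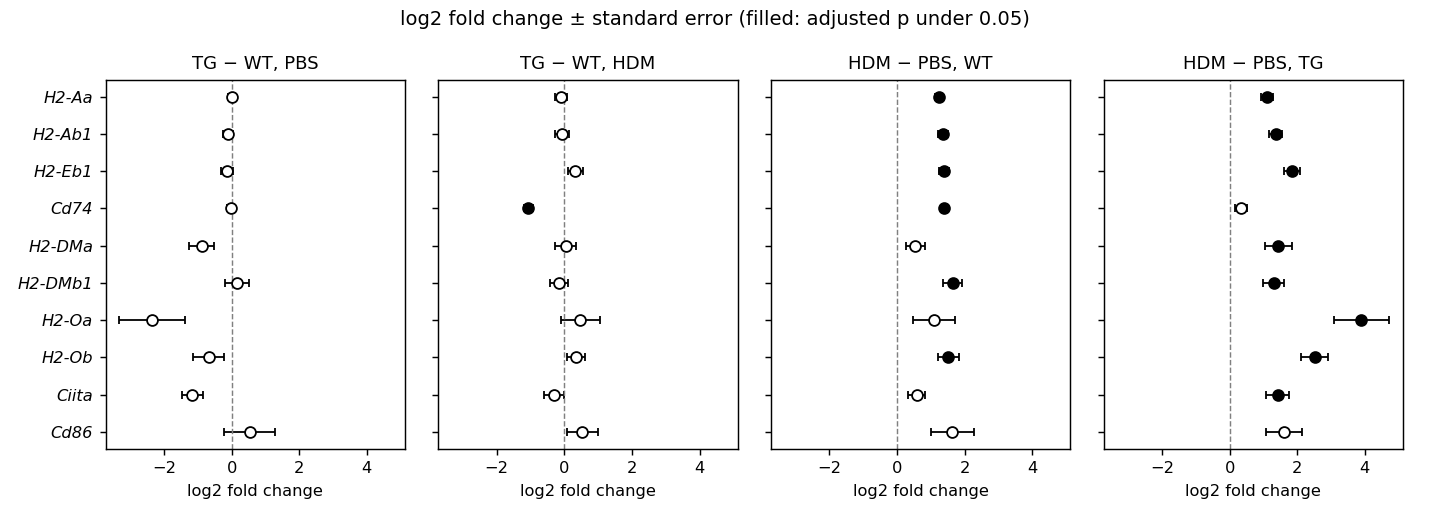
Log2 fold change of each gene (horizontal axis, bars show the SE of the fit) in 4 comparisons (panels), with filled points for an adjusted p under 0.05 and a line at 0. The values after HDM lie to the right of 0 for all 10 genes in both genotypes (0.33 to 3.90), and between genotypes only Cd74 under HDM is filled, at −1.06.

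The next question was whether the genotypes differed in PBS-treated lungs. None of the 10 genes was called, where 0.657% of the 14926 genes tested were (0.281% higher and 0.375% lower), with edgeR's quasi-likelihood test, and 3 of the 10 (Ciita, H2-Oa and H2-DMa) had an unadjusted p under 0.05, as did 9.98% of all genes. The 3 class II chains and Cd74 were at nearly equal levels, with log2 fold changes of 0.01 (SE 0.12) for H2-Aa, −0.10 (SE 0.15) for H2-Ab1, −0.14 (SE 0.18) for H2-Eb1 and −0.02 (SE 0.12) for Cd74. The median log2 fold change of the 10 genes was −0.12 against 0.000792 for all genes. For Ciita both TG libraries (14.8 and 16.8 CPM) lay below both WT libraries (38.3 and 32.2 CPM), a log2 fold change of −1.17 (SE 0.31) with an unadjusted p of 0.00164 and an adjusted p of 0.120. DESeq2 called Ciita (log2 fold change −1.16, adjusted p = 0.0347), and so did the test without a filter on low counts (adjusted p = 0.0428). H2-Oa had a log2 fold change of −2.36 (SE 0.96, adjusted p = 0.398) and H2-DMa of −0.89 (SE 0.37, adjusted p = 0.406), the latter called only without TG PBS replicate 2 (−1.55, adjusted p = 0.0248). These 3 were the genes whose TG libraries were all below their WT libraries, which held for 20.4% of all genes, and none of the 10 had all TG libraries above, which held for 20.0%.

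Under HDM the genotypes differed in Cd74. It was 2.09-fold lower in TG than in WT lungs (log2 fold change −1.06, SE 0.14, adjusted p = 0.00233) and was the 1 of 10 genes called, where 2.44% of the 15191 genes tested were called, 1.84% higher and 0.599% lower. Both TG libraries lay below both WT libraries, as for 25.0% of all genes. The 3 chains it accompanies were at similar levels, with log2 fold changes of −0.10 (SE 0.17) for H2-Aa, −0.07 (SE 0.20) for H2-Ab1 and 0.33 (SE 0.21) for H2-Eb1, and the libraries of the 2 genotypes overlapped for each. With the correction for transcript length the values were −0.49 for H2-Aa (adjusted p = 0.187), −0.42 for H2-Ab1 (adjusted p = 0.327), 0.15 for H2-Eb1 and −1.34 for Cd74 (adjusted p = 0.00126). H2-Ob (0.34, SE 0.27) and Cd86 (0.52, SE 0.46) had both TG libraries above both WT libraries, as did 23.2% of all genes, without passing the test (adjusted p = 0.585 and 0.625). The remaining log2 fold changes were between −0.31 for Ciita and 0.48 for H2-Oa. The call of Cd74 was lost without WT HDM replicate 1 (−1.04, adjusted p = 0.186) and without WT HDM replicate 2 (−1.10, adjusted p = 0.100), fits in which the lone library is assumed to vary like the others. Without TG HDM replicate 1, H2-Eb1 was called as well (0.59, adjusted p = 0.0467).

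The difference between the HDM effects of the 2 genotypes was tested as an interaction over all 8 libraries. Of the 10 genes only Cd74 was called, where 1.76% of the 15868 genes tested were called, 1.05% higher and 0.706% lower, and its HDM effect was smaller in TG mice by −1.09 (SE 0.20, adjusted p = 0.00660). Without WT PBS replicate 1 the value was −0.95 with an adjusted p of 0.0534. H2-Oa had the highest interaction value (2.79, SE 0.99, adjusted p = 0.184; 14.7% of all genes had an unadjusted p under 0.05), followed by H2-Ob (0.98, SE 0.51, adjusted p = 0.394), H2-DMa (0.88, SE 0.49, adjusted p = 0.437) and Ciita (0.82, SE 0.42, adjusted p = 0.383). For H2-Oa, H2-Ob, H2-DMa and Ciita the TG PBS mean was below the WT PBS mean, and the means of the 2 HDM groups were closer to each other on the log2 scale. The calls of the HDM comparison in one genotype and not in the other are thus not shown to differ by genotype, with the exception of Cd74.

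Ratios within a library do not depend on how libraries are scaled to each other. The counts of Cd74 per count of H2-Aa, H2-Ab1 and H2-Eb1 summed were 2.17 and 2.71 in WT PBS, 2.87 and 2.40 in WT HDM and 2.15 and 2.82 in TG PBS, but 1.34 and 1.19 in TG HDM. The 2 TG HDM libraries were below the other 6. Cd74 made up 65.5 to 71.9% of the 10 genes' counts in those 6 libraries and 53.9 and 51.5% in TG HDM. H2-Ab1 per H2-Aa count stayed between 0.425 and 0.574 in all 8 libraries, with the WT PBS libraries far apart (0.425 and 0.570) and the TG PBS libraries (0.455 and 0.463) below both HDM groups, while H2-Eb1 per H2-Aa count was 0.434 and 0.522 in TG HDM and 0.245 to 0.405 elsewhere. Ciita counts per 1000 H2-Aa counts were 96.2 and 87.2 in WT PBS, 54.9 and 61.1 in WT HDM, 39.7 and 41.5 in TG PBS and 48.7 and 52.0 in TG HDM. WT PBS was the highest of the groups by this ratio and TG PBS the lowest.

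**Figure D3:**
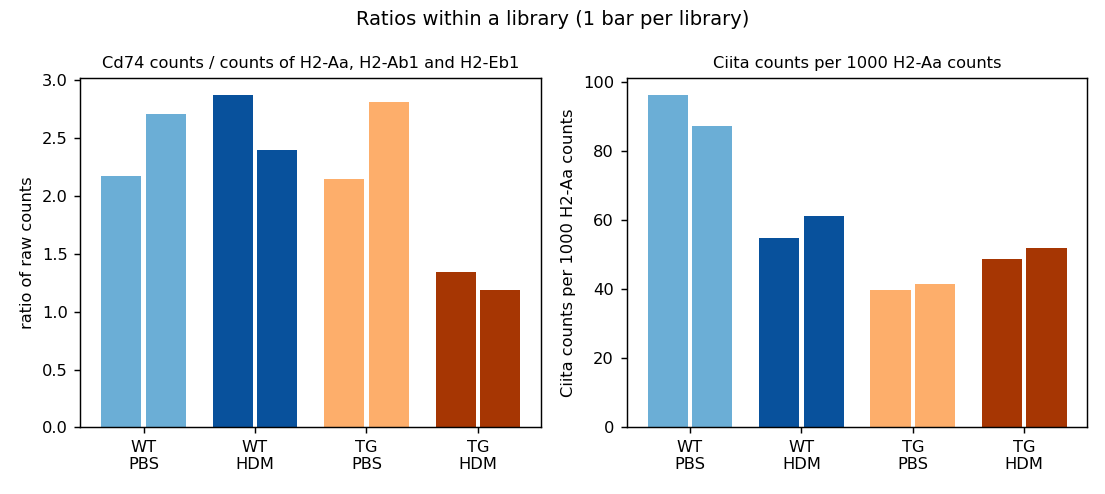
Ratios of raw counts within each of the 8 libraries (bars from 0, coloured by group). Cd74 per summed count of the 3 class II chains is 1.19 to 1.34 in the TG HDM libraries and 2.15 to 2.87 in the others, and Ciita per 1000 H2-Aa counts is 87.2 to 96.2 in WT PBS and 39.7 to 61.1 in the others.

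A list of 29 other genes of the class II pathway, with the proteases, transcription factors, interferon signalling and receptors around the 10 genes, was counted in the same fits. After HDM, 10 of the 27 tested rose and none fell in WT mice (median log2 fold change 0.46). In TG mice 10 of the 28 tested rose and none fell (median 0.83). Of all genes tested, 4.44% were called higher in WT mice and 8.43% in TG mice. The endosomal proteases Ctsb, Ctsd, Ctsl, Ctss and Lgmn and the lysosomal reductase Ifi30 rose in both. Ctss, the cathepsin S that makes the last cut of the invariant chain, was at 166 and 155 CPM in WT PBS and 714 and 723 CPM in WT HDM, and at 101 and 91.9 CPM in TG PBS and 1461 and 1561 CPM in TG HDM. The 4 groups did not overlap. Ctss rose by a log2 fold change of 2.16 in WT and of 4.0 in TG mice (adjusted p = 1.03e-07), with an interaction of 1.81 (adjusted p = 1.70e-05), called under all 14 alternatives. Ctss and Cd74 were thus called in opposite directions in the interaction. Without TG PBS replicate 1 or 2, 6 and 4 genes of the list were called in TG mice.

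In PBS-treated lungs, 0.375% of all genes tested were called lower in TG than in WT mice. Of the pathway genes, 3 of 27 were called lower and none higher (median −0.27). Among them were Cd4, the T cell coreceptor for class II (−1.92, SE 0.37, adjusted p = 0.0178), and Ctss (−0.75, SE 0.16, adjusted p = 0.0338). Under HDM, 3 of 28 were called higher in TG mice (median 0.08), against 1.84% of all genes tested with edgeR's quasi-likelihood test. They were the cathepsins Ctss (1.11, SE 0.15, adjusted p = 0.00249), Ctsd (1.00, SE 0.18, adjusted p = 0.0158) and Ctsl (0.92, SE 0.21, adjusted p = 0.0456). With 1 WT library left out, whichever it was, none of these was called in PBS or under HDM. The study picked some pathway genes from these same samples, so their direction is not independent evidence. In the interaction, Ctss, Ctsd (1.43, adjusted p = 0.00281) and H2-Eb2 (4.15, adjusted p = 0.0473) were called higher, the last on 2 and 4 counts in TG PBS. The call of H2-Eb2 held without WT PBS replicate 1 or WT HDM replicate 1 and was lost without any 1 of the other 6 libraries (adjusted p up to 0.213, without WT PBS replicate 2). The genes of factors held at class II promoters, Rfx5, Rfxap, Rfxank, Nfya, Nfyb, Nfyc and Creb1, were called in no comparison. Ifng, the T cell cytokine that induces Ciita, had 10 and 38 counts in TG HDM and 0 to 5 in each of the other 6 libraries.

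Class I presentation was followed with a list of 14 genes. Of all genes tested, 4.44% were called higher after HDM in WT mice and 8.43% in TG mice. B2m (1.38 and 1.63), H2-K1 (1.83 and 2.50) and H2-D1 (1.10 and 1.89) were among the list genes that rose. In the list 6 rose in WT mice (median 0.92) and 8 in TG mice (median 1.38), and none fell. Leaving out 1 library gave 3 to 8 in WT mice, lowest without WT PBS replicate 2, and 3 to 8 in TG mice, lowest without TG PBS replicate 2 (4 without TG PBS replicate 1). None was called between genotypes in PBS or under HDM with edgeR's quasi-likelihood test, where 2 and 4 had an unadjusted p under 0.05 and DESeq2 called 0 and 3. The class I heavy chain H2-D1 was the 1 gene called in the interaction (0.77, adjusted p = 0.0411), but its call was lost with the correction for transcript length (adjusted p = 0.100) and without any 1 of the PBS or WT HDM libraries (adjusted p 0.0515 to 0.199).

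Many markers of the cells that carry class II were higher after HDM, but not all. The summed level of 10 B cell markers was 189 to 201 CPM in WT PBS, 522 to 570 in WT HDM, 105 to 110 in TG PBS and 417 to 627 in TG HDM, and 7 of 10 rose after HDM in each genotype (4 of 10 in WT mice without WT PBS replicate 2, and 4 of 10 in TG mice without TG PBS replicate 1 and again without replicate 2). That of 11 macrophage markers was 316 to 335, 852 to 935, 269 to 320 and 741 to 758 CPM in the same order, with 7 of 11 called higher in WT and 8 of 11 in TG mice (2 and 3 of 11 in TG mice without TG PBS replicate 1 and 2). The macrophage markers Marco, Pparg and Siglecf had lower means after HDM in WT mice. Their means went from 7.92 to 1.58, 13.7 to 9.78 and 12.1 to 8.53 CPM. In TG mice Marco and Pparg were lower, and no macrophage marker was called lower in either genotype. Of all genes tested, 4.44% were called higher and 2.30% lower in WT mice, and 8.43% and 5.35% in TG mice. The sum of 11 dendritic cell markers was 371 to 384, 514 to 550, 335 to 374 and 405 to 418 CPM. Of these markers, 2 of 11 were called higher in WT mice, Itgax (2.88) and Ccl17 (3.90). In TG mice 1 was called higher (Itgax, 2.62) and 1 lower (Xcr1, −0.77). Itgax alone went from a mean of 29.5 to 216 CPM in WT mice, more than the rise of the sum, while Xcr1 (253 and 186 CPM) and Clec9a (47.9 and 28.7 CPM), both markers of conventional dendritic cells, had lower means after HDM in WT mice without passing the test. The B cell sum was lowest in TG PBS, the group in which H2-Oa, H2-DMa and Ciita were lowest. However, no B cell marker was called between genotypes in PBS with edgeR's quasi-likelihood test (for example Ms4a1 −1.03 and Cd79a −1.28, adjusted p = 0.240 and 0.110). By that test 5 of 10 had an unadjusted p under 0.05, against 9.98% of all genes, and DESeq2 called 1 of the 10 lower. Under HDM the macrophage and dendritic cell sums were lower in both TG libraries than in both WT libraries. By single genes, 8 macrophage markers were lower in TG mice and 3 higher (median log2 fold change −0.22). Of the dendritic cell markers, 5 were lower and 6 higher (median 0.05). The dendritic cell sum rested mainly on Itgax and Xcr1, at means of 216 and 186 CPM in WT HDM and 153 and 134 CPM in TG HDM. No gene of either list was called by edgeR's quasi-likelihood test, with 1 and 4 of 11 at an unadjusted p under 0.05, against 16.2% of all genes. DESeq2 called 1 macrophage gene higher and 1 dendritic cell gene lower. The interaction called the dendritic cell chemokine Ccl17 lower (−3.45) and the macrophage gene Adgre1 higher (1.91). The call of Adgre1 was lost without any 1 of the PBS libraries, WT HDM replicate 1 or TG HDM replicate 1. T cell markers summed to 38.1 to 49.4, 58.4 to 89.5, 27.4 to 34.5 and 70.1 to 118 CPM. The part of these cells in the differences of the 10 genes was not tested.

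**Figure D4:**
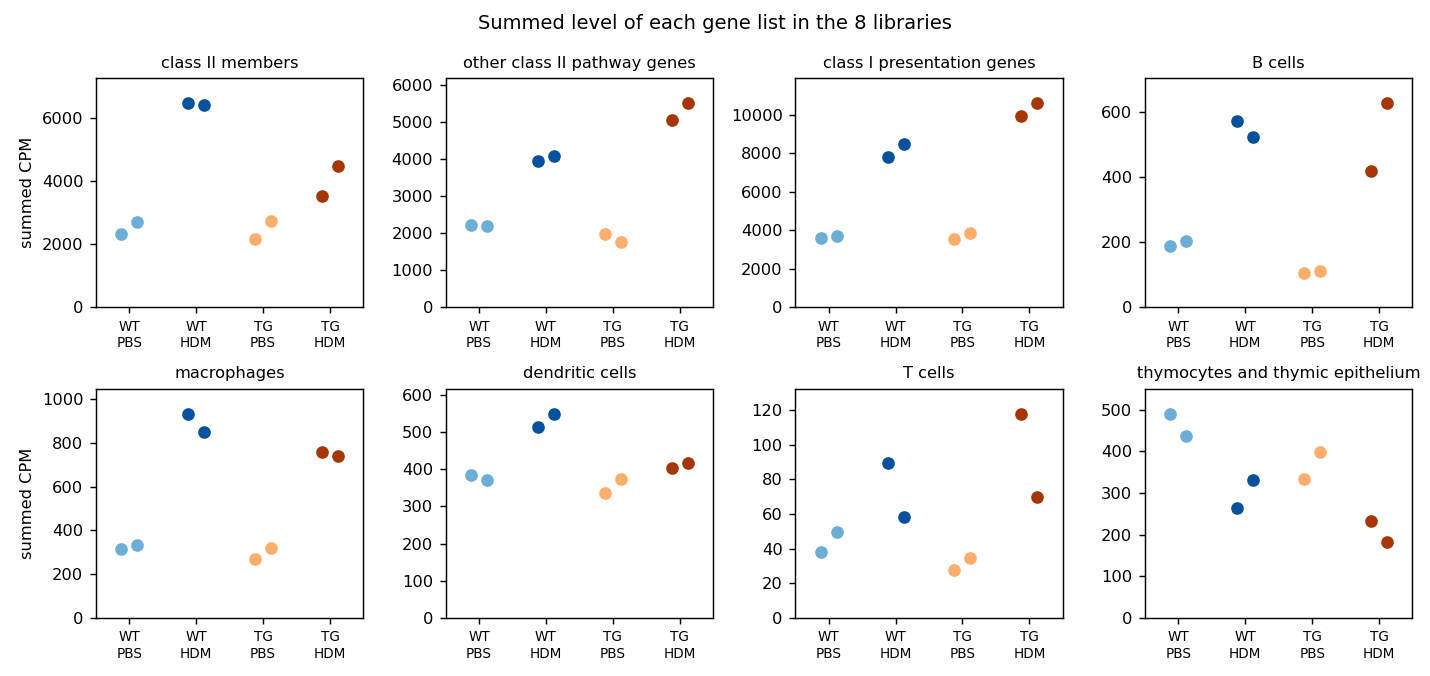
Summed CPM of 8 gene lists (panels) in each library by group, with points for libraries. The B cell and macrophage sums are higher in every HDM library than in every PBS library, and the sum of the 10 class II genes is 6413 to 6471 CPM in WT HDM and 3508 to 4479 CPM in TG HDM.

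Within the class II region, the stretch from H2-Oa to H2-Eb1 (chr17:34092379-34316674, GRCm38) held 7 of the 10 genes and 7 other genes of the table. After HDM, 2 of these 7 others were called higher in WT mice, where 4.44% of all genes tested were. They were H2-DMb2 (2.03), whose split from H2-DMb1 is uncertain, and the peptide transporter Tap1 (1.03). In TG mice 4 of the 7 were called higher, where 8.43% of all genes tested were. They were the immunoproteasome subunits Psmb9 (2.76) and Psmb8 (1.58), Tap1 (1.82) and Tap2 (1.46). Tap2 was near the threshold (adjusted p = 0.0490 with edgeR's quasi-likelihood test). Brd2, a chromatin reader of the same stretch, had log2 fold changes of 0.11 and 0.08 and was not called. Cd74 (18:60803849-60812652), Ciita (16:10480014-10531064) and Cd86 (16:36568956-36666158) lie elsewhere in the genome.

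The genes whose pattern across the 8 libraries was most like the median pattern of the 10 genes, among 12448 compared, included Ifi207 and A530032D15Rik (Pearson's r = 0.992 each), the class I gene H2-T22 (0.991), Lipa (0.987), which codes for the lysosomal lipase, and the endosomal protease Ctsb (0.986). Gm8909, H2-Q1, Stac2 and H2bc15 followed at 0.984 to 0.985, and 1 gene without a name in the tables used made up the 10. The class I genes among them belong to a family of near-identical copies, so their counts are uncertain. The 8 points share 4 pools and the gap between PBS and HDM, and these values describe likeness only.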

How the data were processed

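Lung RNA libraries of 8 samples in 4 groups were analysed, 2 libraries from each pool of 4 mice. The values deposited by the authors are raw counts per Entrez GeneID, and the submitters' processing notes name CASAVA 1.8, bcl2fastq, TopHat and DESeq and the mm10 build. Names came from RefSeq (GRCm38.p6; 23372 of 23469 GeneIDs) and lengths from GENCODE M21 (21145 genes). Groups followed the sample labels. Counts were fitted with edgeR 4.0.16 in R 4.3.3 (TMM factors, quasi-likelihood test, Benjamini-Hochberg adjustment over all genes tested, threshold 0.05, prior count 2), after keeping genes that passed filterByExpr with a count minimum of 10. Each 2-group comparison used its own 4 libraries, and the interaction all 8. Levels are TMM-scaled CPM. The script was tested on simulated data. Alternatives were median-ratio size factors, DESeq2 1.42.0, no filter, a length offset (loess span 0.5), a replicate block, all 8 libraries in 1 fit, and leaving out each library. The 10 genes and all lists were chosen with earlier results of these data known. The genes named are the 10 members, called genes of the lists and the genes most like the members' median pattern. Protein sequences were not used here, and values of some single list genes are not reported here.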

Additional observations from a re-analysis of the deposited data

Results flagged for a closer look

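Cd74 was singled out because its HDM effect differed between the genotypes by a test of the difference itself: the interaction was −1.09 on the log2 scale (SE 0.20, adjusted p = 0.00660 with edgeR's quasi-likelihood test over 8 libraries). HDM libraries were above PBS libraries for both replicates in WT mice, while in TG mice 1 HDM library (1891 CPM) lay below 1 PBS library (1950 CPM). Over the alternatives the interaction was −1.40 to −0.85, called in 13 of 14.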

How the results depend on the processing

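Of 580 repeats of a single gene's value, 526 kept direction and call, 24 kept direction and lost the call, 6 gained one and 24 changed sign. The number of genes called between genotypes in PBS was 98, against 223 with DESeq2, 306 without a filter, 46 with the replicate block and 75 to 432 without 1 library (members 0, against 1 with DESeq2, 1 without a filter and 0 to 1). Under HDM it was 370, against 922, 1055, 625 with the block, 198 with the length offset, 771 in the fit of all 8 libraries and 6 to 1595 without 1 library (members 1, against 0 to 2). The share called higher there moved from 75.4% to 63.6% with the offset, 64.0% with DESeq2, 64.4% with offset and block and 57.1% in the fit of all 8, and in PBS from 42.9% to 31.9% in the fit of all 8, 54.3% with the replicate block and 56.9% without TG PBS replicate 1. After HDM it was 1020 in WT mice, against 1588 without a filter and 652 to 1661 (members 6 to 6), and 2079 in TG mice, against 277 to 2676 (members 8, against 5 with the offset and 0 to 9). The interaction called 279, against 680 with DESeq2, 675 without a filter and 138 to 723 (members 0 to 1). The cause of these shifts was not tested.

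Sign changes among single genes came with 1 library left out for Cd74 (−0.24 to 0.20), Cd86 (−0.018 to 1.46), H2-Aa (−0.050 to 0.079), H2-Ab1 (−0.24 to 0.061) and H2-Eb1 (−0.31 to 0.026) in PBS, for H2-Aa (−0.28 to 0.046), H2-Ab1 (−0.32 to 0.15), H2-DMa (−0.23 to 0.34) and H2-Eb1 (−0.0033 to 0.59) under HDM, and for H2-Aa (−0.36 to 0.0070), H2-Ab1 (−0.29 to 0.22) and Cd86 (−0.98 to 0.50) in the interaction. With the length offset, without and with the block, H2-DMa under HDM was −0.14 and −0.12 and Cd74 after HDM in TG mice −0.064 and −0.046. Fold changes followed transcript length (Spearman −0.281 under HDM between genotypes and −0.331 after HDM in TG mice).

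Replicate numbers are shared by the groups, but deviations of same-numbered libraries correlated at −0.021 to 0.032, so the numbers do not pair the libraries. The replicate block changed no call of a member. With it, 0 of the other class II pathway genes were called between genotypes in PBS, against 3. The counts of H2-Oa (5 to 162) and Cd86 (17 to 182) limit their precision, and with pools no value holds variation between mice.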
